A study of Rattus norvegicus with 4 samples.

Results

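The genes described here are 58 expressed genes of A7R5 cells whose Iso-Seq counts were higher after RbFox2 siRNA in every library. A gene was taken when it had 10 or more counts in all 4 libraries and when the lower of its RbFox2 siRNA values was above 1.5 times the higher of its control siRNA values, each as CPM, the gene's count per 1000000 gene counts of its library. Of the 30454 genes in the tables, 8254 had 10 or more counts in every library and 65 of those, or 0.787%, passed the factor. The 58 genes are those of the 65 that have a symbol in the study's supplementary gene lists, 5 genes being without one and *Svep1* and *Cxadr* being left out by the definition. In the opposite direction, 252 of the 8254 genes passed the same factor. Because the genes were chosen by this contrast, their differences between the conditions are a description and carry no test.

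A7R5 is a line of vascular smooth muscle cells that was established from the aorta of rat embryos. The cells received either a pool of 4 negative control siRNAs (control siRNA) or siRNA against *Rbfox2* (RbFox2 siRNA), with 2 libraries per condition, and PacBio Iso-Seq sequenced polyadenylated RNA molecules in full length. The treatment text in the labels also names *RhoBTB1* mRNA as a target, while the sample titles and the study's methods name RbFox2 alone. Nothing in the labels says that the libraries of a condition came from separate cultures, so p-values cover only the spread between these libraries, which may be technical. Both conditions are of 1 cell line. Counts of each condition were deposited as a set of their own. A difference in how reads were assigned to genes therefore cannot be told apart from a difference due to the siRNA.

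RbFox2 is an RNA-binding protein that recognizes GCAUG in introns and exons and thereby directs the inclusion or skipping of nearby exons. In muscle and heart it is known for controlling the splicing of cytoskeletal, ion channel and signaling mRNAs, and through splicing or binding in mRNA ends it can also alter the abundance of its targets.

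*Rbfox2* itself (ENSRNOG00000004688) had 243 and 250 counts with control siRNA and 70 and 78 counts with RbFox2 siRNA. EdgeR's quasi-likelihood fit gave a log2 fold change of -1.78 with a standard error of 0.185 (Benjamini-Hochberg adjusted p = 5.16e-05), so the targeted mRNA was lower in both libraries labelled RbFox2 siRNA. Gene counts per library were between 4072385 and 4617706, and 3 counts, the most that a gene listed at 0 could plausibly have had, correspond to 0.65 to 0.737 CPM. Of the smooth muscle markers, the named ones *Cnn1*, *Cald1* and *Tpm1* summed to 2263 and 1867 CPM with control siRNA and to 1142 and 1257 CPM with RbFox2 siRNA, and the other 7 on the list were not analysed here because no name pairs them with the tables. The summed level of *Myh2*, *Myh4* and *Chrnb1*, from a list of 9 skeletal muscle markers, was 2318 and 2077 CPM with control siRNA and 404 and 388 CPM with RbFox2 siRNA. *Myh4* made most of this sum, and *Chrnb1* was not lower, with 55 and 51 counts with control siRNA and 122 and 83 with RbFox2 siRNA. *Myh2* and *Myh4* belong to a family of similar genes, and whether reads are split among them was not tested. Named markers of endothelial cells (*Tek* and *Icam2*, 2 of 7) stayed between 2.95 and 7.15 CPM in sum. The named macrophage markers (*Cd68* and *Cd14*, 2 of 5) summed to 123 to 131 CPM with control siRNA and to 148 to 153 CPM with RbFox2 siRNA. Names were held only in part. Of 1695 named genes that edgeR called neither higher nor lower, 1684 had a log2 fold change above 0. A marker that was lower without a call thus had little chance of a name, and nothing is read from the direction of these sums. No marker with a name was at 0, and the part of any of these marker shifts in the values below was not tested. In RNA from whole cultures, fewer cells of a kind and less RNA per cell cannot be told apart.

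**Figure D1:**
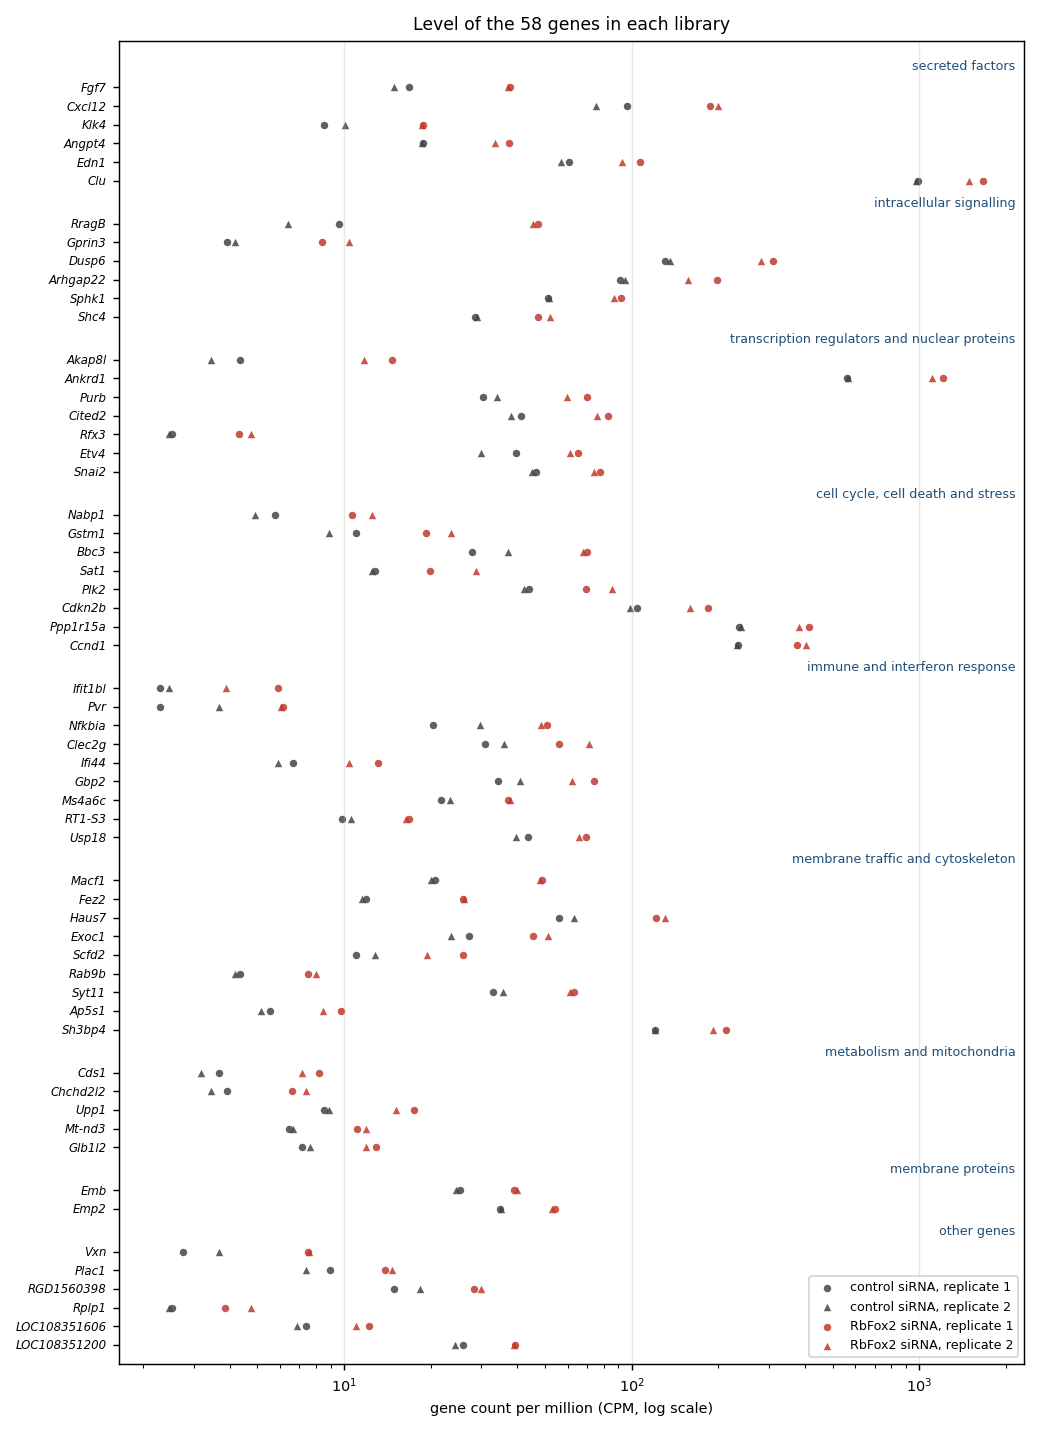
Level of the 58 genes in the 4 Iso-Seq libraries, with the level in CPM on a log axis and 1 row per gene, grouped by known function. Gray marks are control siRNA, red marks are RbFox2 siRNA, and circles and triangles are replicates 1 and 2. No red mark lies left of a gray mark of the same gene by the way the genes were chosen, and mean levels with control siRNA run from 2.38 CPM for *Ifit1bl* to 983 CPM for *Clu*.

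The 58 genes ranged from low to high expression. Their mean level with control siRNA had a median of 21.5 CPM and ran from 2.38 to 983 CPM, and 21 genes lay under 10 CPM while 7 reached 100 CPM or more. With RbFox2 siRNA the median was 39.3 CPM, within 4.31 to 1579 CPM. The sum over all 58 genes was 3526 and 3509 CPM in the control siRNA libraries and 6590 and 6181 CPM in the RbFox2 siRNA libraries. The ratio of mean RbFox2 siRNA to mean control siRNA CPM, called the fold below, had a median of 1.88 and ran from 1.53 for *Emp2* to 5.78 for *RragB*, and 19 genes were at 2 or above. Most differences were a little under 2-fold, with *RragB* and *Akap8l* apart at the top.

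Replicates of these genes lay close together. The ratio of the higher to the lower replicate had a median of 1.07 with control siRNA, at most 1.60 for *Pvr*, and a median of 1.09 with RbFox2 siRNA, at most 1.51 for *Ifit1bl*. Over all 8254 expressed genes these medians were 1.15 and 1.16. A gene with widely spread replicates had less chance to pass the definition, so the spread is not independent of how the genes were chosen.

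**Figure D2:**
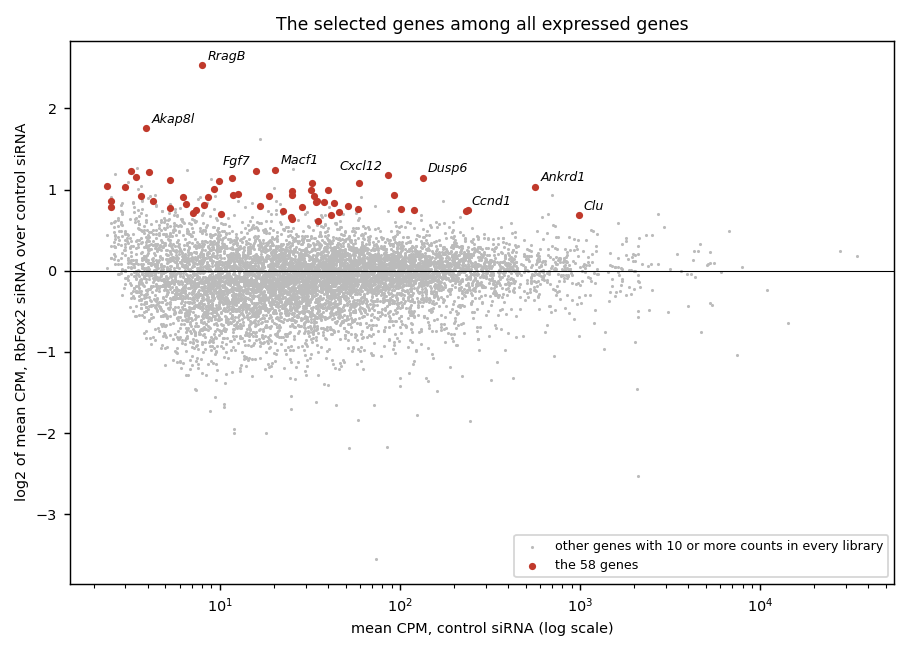
Log2 of the ratio of mean CPM, RbFox2 siRNA over control siRNA, against mean control siRNA CPM on a log axis, for the 8254 genes with 10 or more counts in every library. The 58 genes are in red and the others in gray. The red points lie above 0 at every level of expression by the way they were chosen, and *RragB* lies highest.

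On the scale of the edgeR fit over 9069 genes, the median log2 fold change of the 58 genes was 0.96, within 0.67 to 2.58, beside -0.0097 over all genes tested. Standard errors were between 0.125 and 0.405. The fit called 283 of the 9069 genes higher, or 3.12%, and 45 of the 58 genes were among them. Since the definition used the same counts, nothing is read from that share. The 13 without a call were *Rab9b*, *Rfx3*, *Chchd2l2*, *Mt-nd3*, *Pvr*, *Ifit1bl*, *Glb1l2*, *Ifi44*, *RT1-S3*, *Plac1*, *Ap5s1*, *Rplp1* and *LOC108351606*. Leaving out control siRNA replicate 1 lowered the 45 to 27, and the DESeq2 Wald test gave 32.

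At the edge of the definition lay *Clu*, *LOC108351200* and *LOC108351606*, whose lower RbFox2 siRNA value was 1.501, 1.502 and 1.503 times the higher control siRNA value. The nearest named genes outside were *Avpr1a* (ENSRNOG00000004400), the vasopressin receptor of vascular smooth muscle, at 1.495, *Dennd2a* (ENSRNOG00000026748) at 1.492 and *Acot2* (ENSRNOG00000010134), a mitochondrial acyl-CoA thioesterase, at 1.492. *Avpr1a* had 575 and 534 counts with control siRNA and 1001 and 912 with RbFox2 siRNA. *Dennd2a* had 11 and 13 counts with control siRNA and 21 and 25 with RbFox2 siRNA, and *Acot2* had 333 and 280, then 503 and 641. In these 3 genes too, every RbFox2 siRNA library was above every control siRNA library, so the limit divides genes that differ little. *LOC108351200* had 113 and 99 counts with control siRNA and 174 and 180 with RbFox2 siRNA. *LOC108351606* had 32 and 28, then 54 and 51, and both are genes known by a locus number.

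The promoters of the genes were searched for motifs of NF-κB, interferon-regulated, cyclic AMP-responsive, AP-1, ETS and TEAD factors and for the GC box, to show the sequence that lies before genes of each group. RefSeq promoter sequences of the rat assembly GRCr8, from 250 bases before to 50 bases after the start, were matched by symbol for 42 of the 58 genes. They are of another build than the counts (mRatBN7.2) and serve only to show sequence. A match is a description of letters, on either strand, and is neither a binding site nor a cause. No motif searched contains another. The expressed genes with a name, set beside the 42 below, include those 42. Names were held in part and favor genes called by edgeR or higher after RbFox2 siRNA, so that share is not a neutral background.

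Secreted factors were 6 of the 58 genes, namely *Fgf7*, *Cxcl12*, *Klk4*, *Angpt4*, *Edn1* and *Clu*, with folds between 1.61 and 2.35. *Fgf7* (ENSRNOG00000009425) encodes keratinocyte growth factor, which mesenchymal cells release toward epithelia. It had 73 and 61 counts with control siRNA and 166 and 171 with RbFox2 siRNA, or 15.9 ± 1.27 and 37.3 ± 0.438 CPM (SD, n = 2), a fold of 2.35. *Cxcl12* (ENSRNOG00000013589), the chemokine that binds CXCR4, had 418 and 307 counts with control siRNA and 828 and 922 with RbFox2 siRNA. That was 85.7 ± 14.6 against 193.7 ± 8.39 CPM (SD, n = 2), a fold of 2.26. The control siRNA replicates of *Cxcl12* were the most spread of the secreted factors, at a ratio of 1.27, and still lay far below the RbFox2 siRNA libraries. *Klk4* (ENSRNOG00000018864), a secreted serine protease of the kallikrein family, had 37 and 41 counts with control siRNA and 83 and 86 with RbFox2 siRNA, a fold of 2.02. *Clu* (ENSRNOG00000016460), which encodes the extracellular chaperone clusterin, had 4316 and 3965 counts with control siRNA and 7362 and 6873 with RbFox2 siRNA. Its mean went from 982.5 ± 12.6 to 1579 ± 128 CPM (SD, n = 2), the most counts of all 58 genes and the smallest margin. *Angpt4*, a ligand of the Tie2 receptor, and *Edn1*, the precursor of the vasoconstrictor endothelin-1, had folds of 1.89 and 1.70. All 6 had a named transcript that was higher by the same factor. In the RefSeq annotation *Fgf7* overlaps *Fam227b*, and *Clu* overlaps *Scara3* and *Ppp2r1a-ps1*, so reads could be shared there.

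Intracellular signaling held 6 genes, which were *RragB*, *Dusp6*, *Gprin3*, *Sphk1*, *Arhgap22* and *Shc4*. *RragB* (ENSRNOG00000062421) had the largest difference of all 58 genes. It encodes a Rag GTPase, one of the proteins that bring mTORC1 to the lysosome when amino acids are present. The gene had 42 and 26 counts with control siRNA and 208 and 210 with RbFox2 siRNA. These were 8.02 ± 2.31 and 46.3 ± 1.2 CPM (SD, n = 2), a fold of 5.78. The 2 control siRNA libraries differed by a ratio of 1.51, and the RbFox2 siRNA libraries lay at least 4.71 times above either. RefSeq places the locus *LOC100909694* over *RragB*, so its counts are uncertain to that extent.

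*Dusp6* (ENSRNOG00000023896) encodes the phosphatase that removes the activating phosphates of ERK and is itself induced by ERK signaling. It had 570 and 556 counts with control siRNA and 1366 and 1301 with RbFox2 siRNA, or 133.7 ± 3.96 and 295.8 ± 19.9 CPM (SD, n = 2), a fold of 2.21. *Gprin3* (ENSRNOG00000023657), of a family of G protein-regulated inducers of neurite outgrowth, had 17 and 17 counts with control siRNA and 37 and 48 with RbFox2 siRNA, a fold of 2.33. It is a low gene and its standard error on the log2 scale was 0.311, against 0.134 for *Dusp6*. *Sphk1*, the kinase that makes sphingosine-1-phosphate, *Arhgap22*, a GTPase-activating protein for Rac, and *Shc4*, an adaptor of receptor tyrosine kinases, had folds between 1.73 and 1.91. Their mean levels were 28.7 to 93.1 CPM with control siRNA and 49.6 to 178 CPM with RbFox2 siRNA.

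*Shc4* shares its locus with *Eid1* (ENSRNOG00000008452), and *Eid1* had far more counts. *Eid1* had 2650 and 2538 counts with control siRNA and 5101 and 3649 with RbFox2 siRNA, and edgeR called it higher (log2 fold change 0.71, adjusted p = 0.028). The named transcript *Shc4-201* had 79 and 65 counts with control siRNA and 95 and 120 with RbFox2 siRNA, which is not higher by the factor. The counts of *Shc4* outside this transcript were 45 and 53, then 113 and 120. Whether reads of *Eid1* are among them was not tested. *Shc4* was looked at in this detail after its values were seen.

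Of the 7 transcription regulators and nuclear proteins, *Akap8l* and *Ankrd1* stood out by size and by level. *Akap8l* (ENSRNOG00000006355), a nuclear protein that anchors protein kinase A and associates with chromatin, had 19 and 14 counts with control siRNA and 65 and 54 with RbFox2 siRNA. This was the next largest fold after *RragB*, at 3.39, from 3.90 ± 0.655 to 13.2 ± 2.16 CPM (SD, n = 2). *Ankrd1* (ENSRNOG00000018598) encodes CARP, a stretch-responsive ankyrin repeat protein of muscle that acts as a transcriptional cofactor and is a known target of Yap. It had 2445 and 2304 counts with control siRNA and 5314 and 5110 with RbFox2 siRNA, or 563.7 ± 2.93 and 1156 ± 69.8 CPM (SD, n = 2), a fold of 2.05. *Cited2* (ENSRNOG00000056940), which binds CBP/p300 and restrains HIF-1, had 180 and 155 counts with control siRNA and 365 and 351 with RbFox2 siRNA, a fold of 2.00. In these 3 genes the replicates of a condition were within a ratio of 1.27 of each other, and the conditions were well apart.

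The other 4 were *Purb*, *Etv4*, *Rfx3* and *Snai2*, with folds of 1.66 to 2.00 and mean levels of 2.49 to 45.8 CPM with control siRNA. *Purb* encodes a single-stranded DNA-binding protein that represses smooth muscle actin and myosin genes. *Etv4* is an ETS factor downstream of ERK, *Rfx3* a regulator of ciliary genes and *Snai2* the repressor Slug. *Rfx3* had the fewest counts, 11 and 10 against 19 and 22, and no edgeR call.

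The 8 genes of cell cycle, cell death and stress were *Nabp1*, *Bbc3*, *Gstm1*, *Ccnd1*, *Ppp1r15a*, *Plk2*, *Sat1* and *Cdkn2b*. EdgeR called all 8 higher, beside 45 of all 58 genes, which were chosen by the same contrast. The 8 include genes that promote and genes that restrain division. *Ccnd1* (ENSRNOG00000020918), cyclin D1, which drives entry into S phase, had 1021 and 945 counts with control siRNA and 1657 and 1861 with RbFox2 siRNA, a fold of 1.67. *Cdkn2b*, which encodes the inhibitor p15 of the kinases that cyclin D1 activates, had a fold of 1.69. *Bbc3* (ENSRNOG00000062473), the pro-apoptotic protein PUMA, had 121 and 152 counts with control siRNA and 309 and 313 with RbFox2 siRNA, or 32.6 ± 6.74 and 68.9 ± 1.63 CPM (SD, n = 2), a fold of 2.12.

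*Nabp1* (ENSRNOG00000015416), a single-stranded DNA-binding protein of the DNA damage response, had 25 and 20 counts with control siRNA and 47 and 58 with RbFox2 siRNA, a fold of 2.18. *Gstm1* (ENSRNOG00000029726), a glutathione S-transferase, had 48 and 36 counts with control siRNA and 85 and 109 with RbFox2 siRNA, a fold of 2.16. It belongs to a family of similar genes, among which reads may be split. *Ppp1r15a* (ENSRNOG00000020938), known as GADD34, which restores translation by guiding the dephosphorylation of eIF2α, had 1030 and 975 counts with control siRNA and 1828 and 1771 with RbFox2 siRNA, or 238.0 ± 2.00 and 399 ± 22 CPM (SD, n = 2), a fold of 1.68. *Plk2*, a kinase induced by p53, and *Sat1*, which acetylates spermidine, had folds of 1.79 and 1.92. Of the 8, the replicates of *Sat1* were the most spread with RbFox2 siRNA, at 88 and 133 counts.

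The cyclic AMP response element, searched as TGACGTCA, was in 4 of the 42 promoters, *Cdkn2b*, *Plk2*, *Ppp1r15a* and *Purb*, or 9.52%, beside 2.00% of all promoters and 4.07% of those of expressed genes with a name. Of these, *Cdkn2b*, *Plk2* and *Ppp1r15a* are of the group of cell cycle, cell death and stress. These windows are shown in the direction of the gene, with the motif in capitals, because they show the match that the 4 genes share.
Ppp1r15a, chr1:105139630-105139687 (GRCr8, minus strand): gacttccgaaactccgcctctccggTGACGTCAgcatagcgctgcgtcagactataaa
Plk2, chr2:43702445-43702502 (GRCr8, plus strand): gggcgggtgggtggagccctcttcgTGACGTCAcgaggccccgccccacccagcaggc
Cdkn2b, chr5:109134919-109134976 (GRCr8, minus strand): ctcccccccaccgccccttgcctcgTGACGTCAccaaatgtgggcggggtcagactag
Purb, chr14:85558936-85558993 (GRCr8, minus strand): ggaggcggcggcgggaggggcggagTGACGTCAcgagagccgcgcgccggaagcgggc
The element began 66 bases before the start in *Ppp1r15a* and in *Plk2*, 96 in *Cdkn2b* and 189 in *Purb*. The folds of these 4 genes ran from 1.68 to 2.00, and all 4 had an edgeR call, as had 45 of all 58 genes. The genes were chosen by the contrast that edgeR tests, so nothing is read from these calls.

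The 9 genes of immune and interferon response had folds between 1.62 and 2.06, and 5 of them had an edgeR call, beside 45 of all 58. *Nfkbia* (ENSRNOG00000007390) encodes IκBα, the inhibitor that NF-κB induces against itself. It had 89 and 121 counts with control siRNA and 224 and 223 with RbFox2 siRNA, or 25.1 ± 6.55 and 49.6 ± 1.78 CPM (SD, n = 2), a fold of 1.98. *Usp18* (ENSRNOG00000037198), the protease that removes ISG15 and dampens interferon signaling, had 190 and 162 counts with control siRNA and 305 and 303 with RbFox2 siRNA, a fold of 1.62. *Pvr* (ENSRNOG00000019202), the adhesion receptor CD155, had 10 and 15 counts with control siRNA and 27 and 28 with RbFox2 siRNA, a fold of 2.04 with no call. *Ms4a6c* (ENSRNOG00000030689), of a family of membrane proteins best known from myeloid cells, had 95 and 95 counts with control siRNA and 164 and 175 with RbFox2 siRNA, a fold of 1.66. The other 5, *Clec2g*, *Gbp2*, *Ifi44*, *Ifit1bl* and *RT1-S3*, had folds of 1.63 to 2.06 and mean control siRNA levels of 2.38 to 37.7 CPM. *Clec2g*, *Gbp2*, *Ifit1bl*, *RT1-S3* and *Ms4a6c* belong to multigene families, and *Ifit1bl*, *RT1-S3* and *Ms4a6c* also overlap another RefSeq locus, so their values are uncertain. The macrophage markers *Cd68* and *Cd14* together lay at 123 and 131 CPM with control siRNA and at 148 and 153 CPM with RbFox2 siRNA, neither of them with an edgeR call, and their part here was not tested. The names held for genes without a call favor those higher after RbFox2 siRNA, so nothing is read from this rise.

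The interferon-stimulated response element, searched as GAAA, 2 bases of any kind and GAAA, was in the promoters of 5 genes, *Clec2g*, *Gbp2*, *Ifi44*, *Ifit1bl* and *RT1-S3*. All 5 are of the group of immune and interferon response, whose function is how they were grouped. These are 11.9% of the 42 promoters, beside 4.12% of 27457 promoters of all genes and 4.41% of the 1473 matched promoters of expressed genes with a name. The windows are shown in the direction of the gene with the element in capitals, here as its reverse complement in each, because they show how the match is shared by genes of different families.
Ifit1bl, chr1:241543641-241543700 (GRCr8, minus strand): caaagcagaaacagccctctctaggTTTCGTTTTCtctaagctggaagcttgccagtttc
Gbp2, chr2:234005671-234005726 (GRCr8, plus strand): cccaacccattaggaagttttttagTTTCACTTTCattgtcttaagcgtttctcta
Ifi44, chr2:243303841-243303891 (GRCr8, minus strand): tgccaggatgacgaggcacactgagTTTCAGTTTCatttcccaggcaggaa
Clec2g, chr4:164303710-164303769 (GRCr8, plus strand): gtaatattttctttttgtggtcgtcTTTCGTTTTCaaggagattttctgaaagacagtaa
RT1-S3, chr20:2675391-2675450 (GRCr8, plus strand): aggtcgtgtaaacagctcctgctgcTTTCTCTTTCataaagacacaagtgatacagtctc
In the windows shown, the element began between 26 bases (*Ifi44*) and 158 bases (*Clec2g*) before the start, and *Ifi44* held another match that began at base 27 after it, which is not shown. These genes were looked at singly only after their promoters were seen. *Gbp2* had 150 and 167 counts with control siRNA and 326 and 286 with RbFox2 siRNA, and *Clec2g* had 135 and 147, then 246 and 329. *Ifi44* had 29 and 24, then 58 and 48, *RT1-S3* had 43 and 43, then 74 and 76, and *Ifit1bl* had 10 and 10, then 26 and 18. The 2 with most counts, *Gbp2* and *Clec2g*, had an edgeR call and the other 3 had none.

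The NF-κB motif, searched as GGGA, any base and TTTCC, was in 2 of the 42 promoters, or 4.76%. Of all promoters 0.39% had it, and of those of expressed genes with a name 0.543%. The motif lay 31 bases before the start of *Nfkbia*, a textbook NF-κB target, and 150 bases before that of *Upp1*. Both windows are shown with the motif in capitals as its reverse complement, *Nfkbia* being the gene of the 58 whose induction by NF-κB is best known.
Nfkbia, chr6:78597073-78597128 (GRCr8, minus strand): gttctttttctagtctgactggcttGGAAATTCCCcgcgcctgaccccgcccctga
Upp1, chr14:88024495-88024554 (GRCr8, plus strand): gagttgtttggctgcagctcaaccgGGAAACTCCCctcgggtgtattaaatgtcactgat

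The 9 genes of membrane traffic and cytoskeleton were *Macf1*, *Fez2*, *Haus7*, *Rab9b*, *Syt11*, *Exoc1*, *Sh3bp4*, *Ap5s1* and *Scfd2*. *Macf1* (ENSRNOG00000016047) encodes a very large protein that crosslinks microtubules and actin filaments. It had 90 and 82 counts with control siRNA and 216 and 221 with RbFox2 siRNA, or 20.4 ± 0.380 and 48.4 ± 0.801 CPM (SD, n = 2), a fold of 2.37. *Fez2* (ENSRNOG00000004577), of a family of adaptors in axonal transport, had 52 and 47 counts with control siRNA and 114 and 121 with RbFox2 siRNA, a fold of 2.22. *Haus7* (ENSRNOG00000055648), a subunit of augmin, which nucleates microtubules in the spindle, had 244 and 257 counts with control siRNA and 536 and 604 with RbFox2 siRNA, a fold of 2.12. Replicates of *Macf1* and *Fez2* were nearly equal in both conditions. *Macf1* overlaps *Macf1l1* and *LOC120103187* in RefSeq, so its counts are uncertain to that extent.

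*Sh3bp4* (ENSRNOG00000019316), an endocytic adaptor that also binds Rag GTPases, had the highest level of these 9, with 527 and 490 counts with control siRNA and 942 and 885 with RbFox2 siRNA, a fold of 1.68. The other 5 genes had folds of 1.71 to 1.91. They are *Exoc1*, of the exocyst complex that tethers secretory vesicles, *Scfd2*, of the Sec1 family, *Syt11*, a synaptotagmin, *Rab9b*, a GTPase of late endosomes, and *Ap5s1*, a subunit of the AP-5 adaptor. *Rab9b* and *Ap5s1* were low, under 10 CPM in every library, and had no call.

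Metabolism and mitochondria held 5 genes, all of them low, with mean levels of 3.43 to 8.67 CPM with control siRNA. *Cds1* (ENSRNOG00000002142), which makes CDP-diacylglycerol for phospholipid synthesis, had 16 and 13 counts with control siRNA and 36 and 33 with RbFox2 siRNA, a fold of 2.23. *Upp1* (ENSRNOG00000004972), uridine phosphorylase, had 37 and 36 counts with control siRNA and 77 and 70 with RbFox2 siRNA, a fold of 1.88. *Chchd2l2* (ENSRNOG00000000918) had 17 and 14 counts with control siRNA and 29 and 34 with RbFox2 siRNA, a fold of 1.90 without a call, and its name marks it as a copy of *Chchd2*. *Glb1l2* and *Mt-nd3*, the mitochondrially encoded subunit of complex I, had folds of 1.69 and 1.76, also without a call. Only *Cds1* and *Upp1* of the 5 were called. *Mt-nd3* had 28 and 27 counts with control siRNA and 49 and 55 with RbFox2 siRNA. Other mitochondrially encoded genes differed widely in level, with *Mt-nd4* at 10927 and 11831 counts with control siRNA and *Mt-nd4l* and *Mt-nd6* at 0. Whether reads were split among these genes was not tested, so the value of *Mt-nd3* is uncertain.

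The group of 2 membrane proteins had the smallest median fold of any group, at 1.56. *Emb* (ENSRNOG00000060329), embigin, a partner of monocarboxylate transporters, had 110 and 100 counts with control siRNA and 172 and 184 with RbFox2 siRNA, a fold of 1.58. *Emp2* (ENSRNOG00000002664), a tetraspan membrane protein, had 152 and 143 counts with control siRNA and 239 and 245 with RbFox2 siRNA, a fold of 1.53. Their replicates were within a ratio of 1.03 in both conditions.

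The last 6 genes are *Vxn*, *Plac1*, *RGD1560398*, *Rplp1* and both LOC genes at the edge of the definition. *Vxn* (ENSRNOG00000021663), vexin, known from neural differentiation, had 12 and 15 counts with control siRNA and 33 and 35 with RbFox2 siRNA, a fold of 2.34. *Plac1* (ENSRNOG00000002379), a gene of the placenta, had 39 and 30 counts with control siRNA and 61 and 68 with RbFox2 siRNA, a fold of 1.75. *RGD1560398* (ENSRNOG00000069648) had 65 and 75 counts with control siRNA and 125 and 138 with RbFox2 siRNA, a fold of 1.75. *Rplp1*, with a fold of 1.73, had only 11 and 10 counts with control siRNA and 17 and 22 with RbFox2 siRNA. Ribosomal protein genes have many processed copies in the genome, so this value is uncertain.

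Iso-Seq assigns reads to annotated transcripts as well as to genes, so it was asked whether a named transcript of each gene was also higher. Transcript and gene counts come from the same reads, and the comparison is a description of where the counts lie. Transcript CPM were computed on the sum of transcript counts, between 2419794 and 2738439 per library. These were 58.5 to 59.4 per 100 gene counts, so many gene counts lay on no transcript. Of the 58 genes, 45 had at least 1 transcript with a known name and 13 had none, and the 45 genes had 52 named transcripts. In 35 of the 45 genes a named transcript passed the same factor with 10 or more counts in both RbFox2 siRNA libraries, 38 transcripts in all. Of all 7079 transcripts with such counts, 199 passed, or 2.81%, and of the 1090 of them with names 178 passed, or 16.3%. The names were held from a list sorted by its fold change, and the genes were chosen by the same reads, so nothing is read from the difference. In all 45 genes a named transcript was higher in every RbFox2 siRNA library than in any control siRNA library. The genes were chosen for such a separation in the same reads, and no share over all transcripts was counted. Nothing is read from this count.

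Named transcripts held most counts of many of the 45 genes that have one. Their share of the gene's counts had a median of 87.4%, and was at least 80% in 27 of the 45 genes, among them *Ppp1r15a-201* and *Usp18-201* with 99.9% each. The fold of 41 of the 52 transcripts was within a factor of 1.2 of the fold of the gene. *Usp18-201* shows how the limit works, since its 190 and 161 counts with control siRNA and 305 and 303 with RbFox2 siRNA are nearly those of the gene, and its ratio of 1.483 on transcript CPM is just under the factor. The 10 genes with a name but no transcript past the factor were *Ap5s1*, *Emp2*, *Gbp2*, *Glb1l2*, *LOC108351200*, *Purb*, *RT1-S3*, *Shc4*, *Syt11* and *Usp18*.

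**Figure D3:**
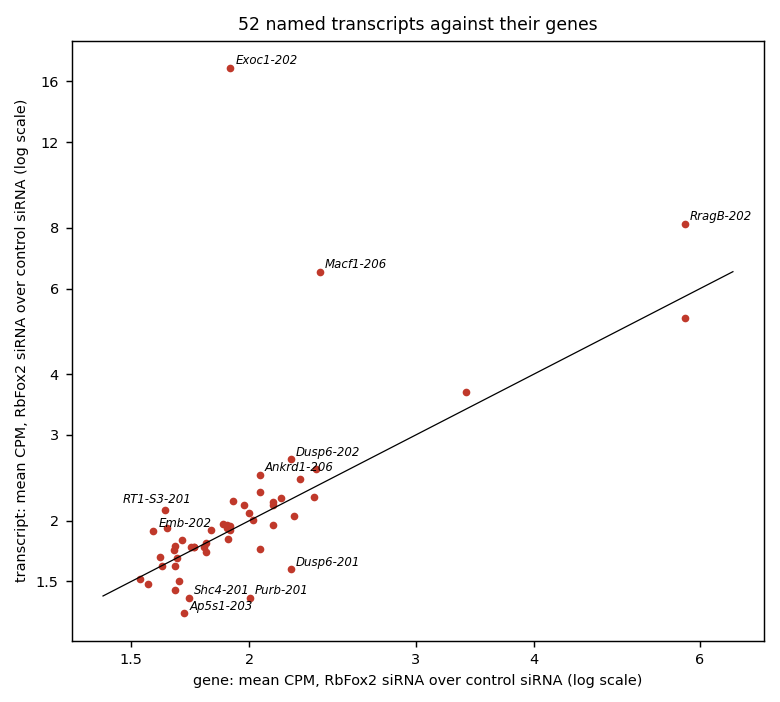
Fold of the 52 named transcripts against the fold of their gene, both as mean CPM with RbFox2 siRNA over mean CPM with control siRNA on log axes. The line marks equal folds. Transcripts that differ from their gene by more than a factor of 1.2 carry their name, and *Exoc1-202* lies farthest above the line at 17.05 against 1.91 for the gene.

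In 2 genes the named transcript differed from the gene by more than a factor of 2. *Exoc1-202* (ENSRNOT00000090470) had 11 and 6 counts with control siRNA and 139 and 171 with RbFox2 siRNA, which was 9.32% and 6.25% of the gene's counts and then 69.2% and 72.5%. The counts of *Exoc1* outside it were 107 and 90 with control siRNA and 62 and 65 with RbFox2 siRNA. The named transcript was thus far higher while the counts of the gene outside it were lower, at 0.603 times their control siRNA level. The other was *Macf1-206* (ENSRNOT00000101846), with 0 and 7 counts with control siRNA and 28 and 22 with RbFox2 siRNA. It held 9.36% of the counts of *Macf1* over all libraries, and the counts outside it were also higher, at 90 and 75 and then 188 and 199. Both transcripts were singled out after their values were seen.

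In 5 genes the named transcripts held under 20% of the counts, so a higher named transcript says little about the gene. *Dusp6* was the lowest at 4.59%, with 20 and 11 counts on *Dusp6-202* with control siRNA and 32 and 57 with RbFox2 siRNA. Its *Dusp6-201* had 14 and 6, then 13 and 21 counts, and the conditions overlapped. The remaining 536 and 539 counts with control siRNA and 1321 and 1223 with RbFox2 siRNA lay outside both. *Fgf7-201* held 13.6% of the counts of *Fgf7*, *Syt11-201* 18.3% of *Syt11* and *Purb-201* 18.7% of *Purb*, beside *Macf1* above. *Purb-201* had 30 and 34 counts with control siRNA and 41 and 55 with RbFox2 siRNA, while the counts of *Purb* outside it were 103 and 105, then 267 and 220.

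More than 1 named transcript was known for 5 genes, *RragB*, *Dusp6*, *Ankrd1*, *Bbc3* and *Ccnd1*. Both transcripts of *RragB* were higher. *RragB-202* had 6 and 6 counts with control siRNA and 56 and 49 with RbFox2 siRNA, and *RragB-201* had 21 and 9, then 83 and 84. The counts outside both went from 15 and 11 to 69 and 77, so they were higher too. Such counts may include reads of the same transcripts that were assigned to none. All 3 named transcripts of *Ankrd1* passed the factor too. *Ankrd1-202* had 1157 and 1034 counts with control siRNA and 2835 and 2532 with RbFox2 siRNA, *Ankrd1-205* had 463 and 402, then 784 and 838, and *Ankrd1-206* had 29 and 16, then 68 and 51. *Bbc3-202* had 100 and 122 counts with control siRNA and 269 and 254 with RbFox2 siRNA and passed. *Bbc3-201*, with 5 and 16, then 19 and 26 counts, did not. For *Ccnd1*, *Ccnd1-202* passed with 292 and 277, then 473 and 616 counts. *Ccnd1-203*, with 541 and 471, then 879 and 870, missed it at a ratio of 1.495, and *Ccnd1-201*, with 82 and 70, then 124 and 111, at 1.259. All 3 transcripts of *Ccnd1* were higher in both RbFox2 siRNA libraries than in either control siRNA library.

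To place the genes among their pathways, 9 lists written from textbook knowledge were counted on the edgeR fit. Among genes without a call, the names held favor those higher after RbFox2 siRNA, since of 1695 named genes without a call, 1684 had a log2 fold change above 0. The named members of a list are thus not a fair sample of it, only the genes with a name can be counted, and the counts are not independent evidence of a direction. Of all 2337 named genes tested, 278 were called higher, or 11.9%, and 364 lower, or 15.6%, and list counts are to be set beside these shares. Over all lists 99 genes were named and tested, 32 were called higher and 1 lower, and 20 were among the 58 genes. Among the 32, 16 were of the 58.

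**Figure D4:**
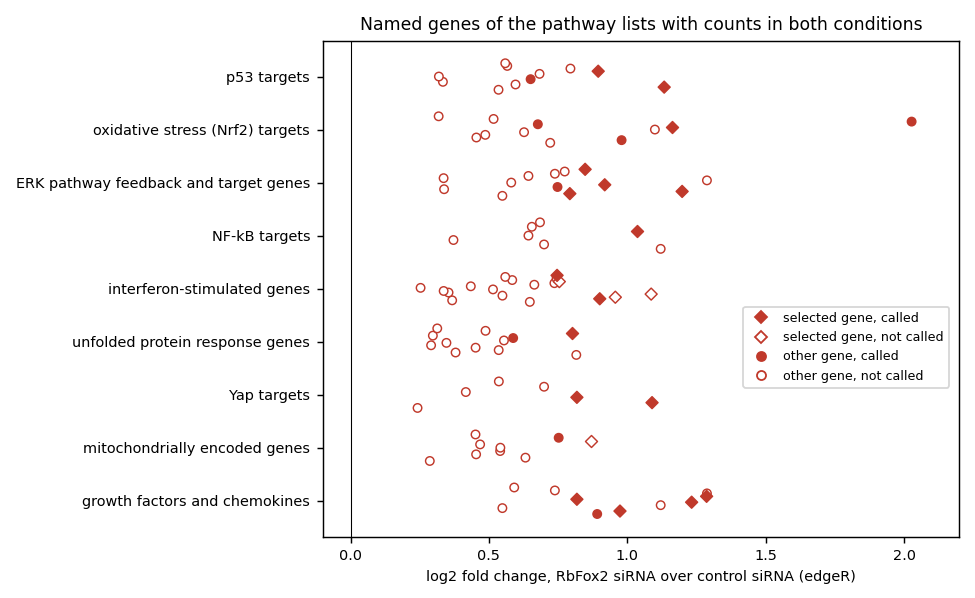
Log2 fold change from edgeR of the named genes of 9 pathway lists that had counts in both conditions, 1 mark per gene and list, with *Fth1* at 9.08 left outside the axis. Diamonds are among the 58 genes, circles are other list genes, and filled marks were called higher. All marks shown lie above 0, and among genes without a call the known names favor such genes, while *Dusp6*, *Fgf7* and *Cxcl12* are among the diamonds above 1.

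The list of ERK feedback and target genes had 8 calls higher among 16 named genes of 32 on the list, with 0 lower. Of the 58 genes it holds *Dusp6*, *Etv4*, *Ccnd1* and *Sphk1*. *Errfi1*, a feedback inhibitor of the EGF receptor, was called as well, with 106 and 82 counts with control siRNA and 155 and 170 with RbFox2 siRNA (log2 fold change 0.75, adjusted p = 0.0291 from edgeR). The remaining 3, *Spred1*, *Spred3* and *Phlda1*, were at 0 in both control siRNA libraries, and without such genes the list had 5 calls, as many as the lists of Nrf2 targets and of growth factors and chemokines. *Phlda1* went from 0 and 0 to 1695 and 1740 counts, which is a jump of another kind than the differences of the 58 genes. Of the 283 genes called higher in all, 175 were at 0 in both control siRNA libraries, and a gene of this sort cannot be among the 58. Whether such genes differ by how reads were assigned in the separately counted conditions was not tested.

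Of 30 p53 targets 12 were named and 4 called higher, with 0 lower. *Bbc3* and *Plk2* are of the 58 genes. *Gadd45a*, a stress sensor, had 615 and 720 counts with control siRNA and 935 and 1249 with RbFox2 siRNA (log2 fold change 0.65, adjusted p = 0.0377 from edgeR), and *Rrm2b* was at 0 with control siRNA. Of 33 targets of Nrf2, the factor that induces antioxidant genes, 12 were named and 5 called higher, with 0 lower, and *Gstm1* is of the 58 genes. Among the others were *Hmox1*, heme oxygenase, with 557 and 542 counts with control siRNA and 919 and 895 with RbFox2 siRNA (log2 fold change 0.68, adjusted p = 0.00743 from edgeR), and *Akr1b10*, an aldo-keto reductase, with 2618 and 3263, then 4985 and 7140 counts (log2 fold change 0.98, adjusted p = 0.00615). *Osgin1* had 11 and 7, then 46 and 30 counts and *Fth1*, ferritin heavy chain, 4 and 2, then 1452 and 2056. *Fth1* has processed copies, so its value is uncertain.

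Of 10 named growth factors and chemokines of 49 on the list, 5 were called higher and 0 lower. They were *Fgf7*, *Cxcl12*, *Edn1* and *Angpt4* of the 58 genes, and *Adm*, the vasodilator adrenomedullin, with 57 and 70 counts with control siRNA and 106 and 139 with RbFox2 siRNA (log2 fold change 0.89, adjusted p = 0.0402 from edgeR). Of 6 named Yap targets of 21, the 2 called higher were *Ankrd1* and *Edn1*, and 0 were lower. Among 13 named genes of the unfolded protein response of 30, 3 were called higher and 0 lower, *Ppp1r15a*, the chaperone gene *Hspa5* and *Dnajb9*, which was at 0 with control siRNA. *Hspa5* had 12782 and 11977 counts with control siRNA and 19890 and 18464 with RbFox2 siRNA (log2 fold change 0.59, adjusted p = 0.0212 from edgeR). Without RbFox2 siRNA replicate 2 that list had 5 calls.

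Of 7 named NF-κB targets of 30, *Nfkbia* alone was called, and it lost the call without control siRNA replicate 1, which left 0. Without RbFox2 siRNA replicate 1 or 2 the list had 2 calls. Of 18 named interferon-stimulated genes of 54, *Usp18* and *Gbp2* were called higher and 0 lower, with 5 of the 18 among the 58 genes. That count moved with the libraries used, to 0 calls without control siRNA replicate 1, 1 without control siRNA replicate 2 and 4 without either RbFox2 siRNA library or with the replicate number as a block. Of 13 mitochondrially encoded genes 12 were named, with 3 called higher and 1 lower, and *Mt-nd3* of the 58 genes was not called. *Mt-nd4l* and *Mt-nd6* were at 0 with control siRNA and *Mt-atp8* was at 0 with RbFox2 siRNA, so among genes counted in both conditions *Mt-nd4* was the 1 call, at 10927 and 11831, then 20657 and 19018 counts. That list had 7 calls without control siRNA replicate 2 and 7 without RbFox2 siRNA replicate 1.

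The AP-1 motif TGANTCA was in 7 promoters, or 16.7%, beside 8.04% of all promoters and 6.04% of those of expressed genes with a name. They were *Emp2*, *Fez2*, *Gbp2*, *Ppp1r15a*, *Rfx3*, *Sphk1* and *Upp1*, so it joined the interferon motif in *Gbp2* and the cyclic AMP motif in *Ppp1r15a*. The TEAD motif GGAATG, of the factors that Yap works through, was in 7, or 16.7%. Of all promoters 15.0% had it, and of those of expressed genes with a name 12.4%. The ETS motif CCGGAAGT was in *Exoc1* alone, or 2.38%, beside 4.20% of all promoters and 10.7% of those of expressed genes with a name. The GC box GGGCGG was in 27, or 64.3%, beside 64.0% of those of expressed genes with a name and 36.0% of all promoters. The median GC content was 58.5% over the 42 promoters and 60.7% over those of expressed genes with a name.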

How the data were processed

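Iso-Seq libraries of A7R5 cells, 2 with control siRNA and 2 with RbFox2 siRNA, were analyzed from gene and transcript tables. Raw counts were deposited by the authors, who removed primers with lima 2.13.0, aligned full-length reads to the rat genome (mRatBN7.2) with pbmm2 1.17.0 and counted them on genes and transcripts of Ensembl 112 with IsoQuant 3.5.0, without normalization or pooling of replicates. Libraries were grouped by their titles, and names came from the study's supplementary lists, which were held in part. Columns in those lists that hold the study's own fold changes and p-values were not used. The genes, lists and motifs were chosen with earlier results of these data known.

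CPM were taken on the sum of the gene or transcript counts. On the whole gene table, edgeR 4.0.16 (R 4.3.3) was run with its filterByExpr filter, TMM factors and the quasi-likelihood test of glmQLFTest (Benjamini-Hochberg adjusted p below 0.05 and fold change above 1.5). DESeq2 1.42.0, other scalings and filters, the replicate number as a block and each library left out in turn were alternatives. Counts drawn at the real means with 200 of 8733 genes changed were used to check the fit, which recovered 131 at a log2 fold change of 1, with 14 other genes called, and 189 at a log2 fold change of 2, with 5 others. Genes at 0 in both libraries of a condition were left out of this check. It therefore does not cover the 175 genes called higher that were at 0 in both control siRNA libraries. The chi-square per degree of freedom between replicates was 4.75 with control siRNA and 9.27 with RbFox2 siRNA, so no library is a copy of another.

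Genes were grouped by known function. Within each group the 3 genes with the largest ratio of the lower RbFox2 siRNA to the higher control siRNA CPM and the gene with the highest mean were named with values, and in addition the genes with 2 or more named transcripts and the 3 on either side of the limit. Overlapping genes were looked up in RefSeq (GRCr8) for 54 genes with 1 match, of which 15 overlap another gene, and no coordinates of the counted genes are given, because the builds differ. Intervals and limits from counts cover counting error only.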

Additional observations from a re-analysis of the deposited data

How the results depend on the processing

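The number of genes that meet the definition depended on its factor and on the number of libraries. A factor of 2 left 8 genes, and with each library left out in turn, where fewer values must be apart, 140 to 155 genes passed, all 58 among them. Scaling by TMM gave 70, DESeq2 size factors 75, a minimum of 20 counts 48 and a minimum of 5 counts 77. The 283 genes called higher by edgeR became 107 under a minimum of 10 counts in each library and 108 when genes at 0 in both control siRNA libraries were left out, an alternative chosen after seeing the data. The median log2 fold change of the 58 genes, 0.96, was 0.905 with scaling by library size alone and 0.897 to 1.00 with each library left out, and the cause was not tested. When the replicate number was fitted as a block, 324 genes were called higher, 47 of the 58 were called, the lists together had 38 calls in place of 32, and the median log2 fold change was 0.959. Deviations of same-numbered libraries correlated at -0.13 across genes. That value alone cannot tell whether same-numbered libraries were handled together, so no pairing is read from the numbers. The crossed pairing, added after seeing the data, called 268 genes higher and 42 of the 58. The number of genes with a higher named transcript stayed between 35 and 45, and the log2 fold change of *Rbfox2* between -1.89 and -1.67. At this depth, genes under 10 CPM rest on few counts, and 21 of the 58 were there with control siRNA. With a library left out, the lone library of a condition is assumed to vary like the other condition.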
